A study of Arabidopsis thaliana with 6 samples.

Results

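The most abundant nuclear transcripts of young Arabidopsis petioles were taken as the 150 genes with the highest mean array signal, of 13207 nuclear genes that could be ranked. A gene was ranked where a probe set was listed with it alone and its locus lies on chromosomes 1 to 5, and its probe set with the highest mean stood for it. Probe sets without a single listed nuclear gene could not enter, and 372 of them lay above the level of the last member. The members are therefore not all of the strongest signals on the arrays. Genes whose symbols begin with PSA, PSB, LHC, PET, ATPC or ATPD, prefixes used for photosystem, antenna, electron transport and chloroplast ATP synthase genes, were left out beforehand. This took out 10 genes, and 8 of these lay above the level of the last member. The filter read symbols only, so genes of these kinds without such a symbol could remain among the members. The members were thus chosen by their mean level over all 6 arrays, and their levels are given as a description. The difference between canopy and single plants was not used to choose them, since both groups enter that mean in equal number.

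Transcripts were measured on Affymetrix 3′ expression arrays in Arabidopsis thaliana petioles, with 3 arrays of single plants, which served as controls, and 3 of a dense stand with a density of 2066 plants per m2, called the canopy. All plants had 9 h of light at 180 µmol per m2 per s and 20°C and 15 h of dark, moved to pots of their own at 10 days, and the canopy pots were packed together from then on. Harvest was at a leaf area index of 0.9, about 23 days after sowing. Each array holds a pool of 2 young petioles from each of 4 plants, so an array is a pool and not a plant. Which accession or genotype was grown is not stated in the labels. The comparison asks how the petiole transcripts of plants with close neighbours differ from those of plants grown alone.

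The petiole carries the leaf blade, conducts water and sugars, and is green itself. In Arabidopsis it lengthens when neighbours shade the plant, a growth response that lifts the blade. The messages that fill most of a green cell's mRNA pool are in general those for the carbon-fixing enzymes of the chloroplast, for primary metabolism, for the ribosome and for abundant secreted proteins. Values are deposited RMA values, read as log2, so that 1 unit is a 2-fold change. Probe sets bind their targets with different strength, so the order of the members is an order of array signal and not of transcript amounts. A tissue sample also mixes cell types, and fewer cells of a type cannot be told apart from less RNA per cell.

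Only 27 of the 150 members carry a name in the RefSeq gene table, and the functions below are given for these. The other 123 are listed there by locus number alone and are reported by that number. Levels of the members ran from 7.58 to 11.2 with a median of 8.27, against array medians of 1.13 to 1.14 for the other ranked nuclear genes. The limit fell in a dense part of the scale. Just inside it, AT3G52730, AT1G73230 and AT1G19450 had means of 7.59, 7.59 and 7.58. Just outside it, AT5G61660, the thioredoxin gene ATHM2 and AT2G37220 had means of 7.58, 7.57 and 7.57. Of the members, 149 had 1 probe set and AT4G16980 had several. Its chosen probe set had a mean of 9.19 and differed by 0.065 ± 0.11 (log2, SE), and the other lay near the bottom of the scale at 1.15 and differed by -0.11 ± 0.13. All 150 probe sets are of the kind designed to match 1 transcript, as are 12932 of the 13207.

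The member with the highest mean signal was RCA, Rubisco activase, which clears inhibitory sugar phosphates from the carbon-fixing enzyme. It stood at 11.12, 11.21 and 11.25 in single plants and at 11.12, 11.19 and 11.21 in the canopy. The groups overlapped almost fully and differed by -0.019 ± 0.086 (log2, SE, n = 3 per group). The next highest, AT2G25510, stood at 10.27, 10.46 and 10.61 in single plants and at 11.13, 10.56 and 10.80 in the canopy, where replicate 1 was highest and replicate 2 lay below the highest single-plant array. It was higher in the canopy by 0.38 ± 0.15 on average (log2, SE; limma adjusted p = 0.351), with overlapping groups. AT1G09310 varied little, at 10.41, 10.37 and 10.45 in single plants and at 10.47, 10.52 and 10.31 in the canopy.

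GAPC2, a cytosolic glyceraldehyde-3-phosphate dehydrogenase of glycolysis, ranked next. Its level was 10.01, 10.02 and 9.83 in single plants and 10.16, 10.21 and 10.06 in the canopy, so that all canopy arrays lay above all single-plant arrays, by 0.19 ± 0.09 on average (log2, SE). AT3G22240 lay at 9.77 to 10.12 in single plants and 10.02 to 10.15 in the canopy, and AT1G78040 at 9.98 to 10.06 and 9.93 to 10.00. Both had overlapping groups. Next came ECS1, which encodes a protein associated with the cell wall, and PRXR1, a peroxidase. PRXR1 overlapped between the groups, at 9.58 to 9.98 in single plants and 9.68 to 10.00 in the canopy, and ECS1 is described with the largest differences below. The other four of the 12 highest were AT5G20290, AT2G41090, AT2G10940 and AT1G62480. Of these, AT5G20290 was lower in every canopy array, at 9.75, 9.36 and 9.78, than in any single-plant array, at 9.88, 9.85 and 10.09, a difference of -0.31 ± 0.13 (log2, SE). AT2G41090 was higher on average by 0.25 ± 0.11 with overlapping groups. AT2G10940 spanned only 9.63 to 9.71 over all 6 arrays, and its small difference of -0.054 ± 0.080 had groups that did not overlap. AT1G62480 differed by -0.11 ± 0.09.

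**Figure D1:**
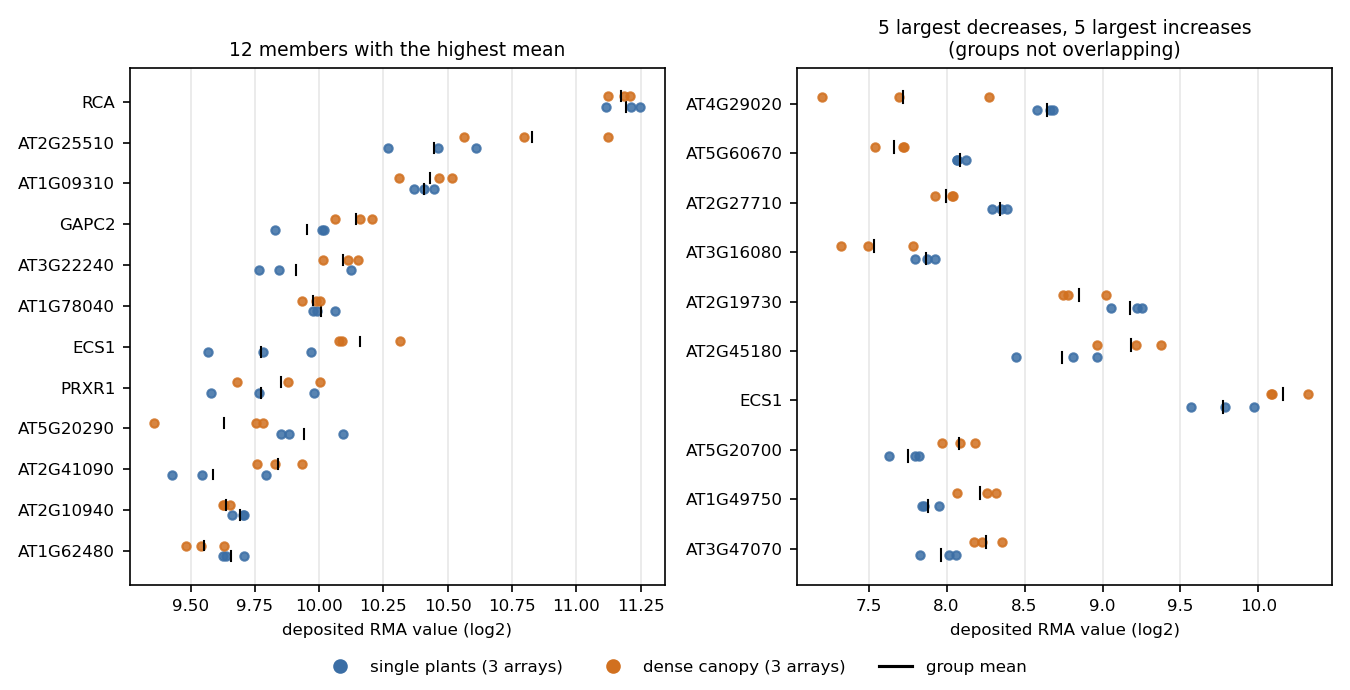
Deposited RMA values (log2, horizontal axis) on each of the 3 single-plant arrays (blue) and 3 canopy arrays (orange), with a black tick at each group mean, for the 12 members with the highest mean (left) and for the 5 largest decreases and 5 largest increases among members whose groups do not overlap (right). RCA shows no separation, and AT4G29020 has the widest spread within the canopy, from 7.20 to 8.27.

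Of the 150 members, 0 were called higher and 0 lower in the canopy by limma at a Benjamini-Hochberg adjusted p under 0.05 over all 22746 probe sets, of which 0.677% were called in either direction, 0.426% higher and 0.251% lower. At an unadjusted p under 0.05 there were 31 members, 24 of them lower and 7 higher. Among all probe sets 7.11% were lower and 5.13% higher at that unadjusted p, 12.2% together. The lowest adjusted p among the members was 0.092 (limma), that of AT5G60670, which was lower in the canopy and the only member with an adjusted p under 0.1, against 1.62% of all probe sets in either direction and 0.796% lower. Over all 6 arrays, 59 members had groups that did not overlap, against 17.0% of all probe sets. Of the 59, 44 were lower in the canopy, or 29.3% of the members against 9.3% of all probe sets. The other 15 were higher, or 10.0% of the members against 7.71% of all probe sets.

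Differences among the members were small, though larger in the median than over all probe sets. Without regard to sign, the median was 0.144 (log2) among members and 0.097 over all probe sets. It was 0.119 in the 372 probe sets above the limit without a single listed nuclear gene. With sign, the members' median was -0.077 (log2, canopy minus single), with quartiles at -0.20 and 0.059. Of the 150 members, 96 lay below 0, or 64.0% against 51.0% of all probe sets. Over all probe sets the median was -0.0030. Only 1 member differed by more than 0.5 in either direction, and 38 members were lower and 10 higher by more than 0.2. The 95% interval of the difference lay within 1 unit of 0 for 149 of the 150, against 98.1% of all probe sets, and within 0.5 for 121 of them, or 80.7% against 79.2% of all probe sets. Thus for all members but AT4G29020 a change of 2-fold or more in either direction lay outside the interval. The median residual SD between replicates was 0.110 among members and 0.133 over all probe sets.

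The shift below 0 was set beside the genes next in level, in groups of 150 by rank. Over the 9 following groups, down to rank 1500, the median difference ran from -0.055 to 0.023, against -0.077 for the members. Groups without overlap and lower in the canopy numbered 15 to 25 in each of those 9, against 44 among the members, while those higher numbered 8 to 24 against 15. Above the members' limit lay also 372 probe sets without a single listed nuclear gene. Their median difference was 0.0083, and 57 of them, or 15.3%, were lower without overlap and 46 higher. These are descriptions and the difference between the members and these other groups was not tested.

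**Figure D2:**
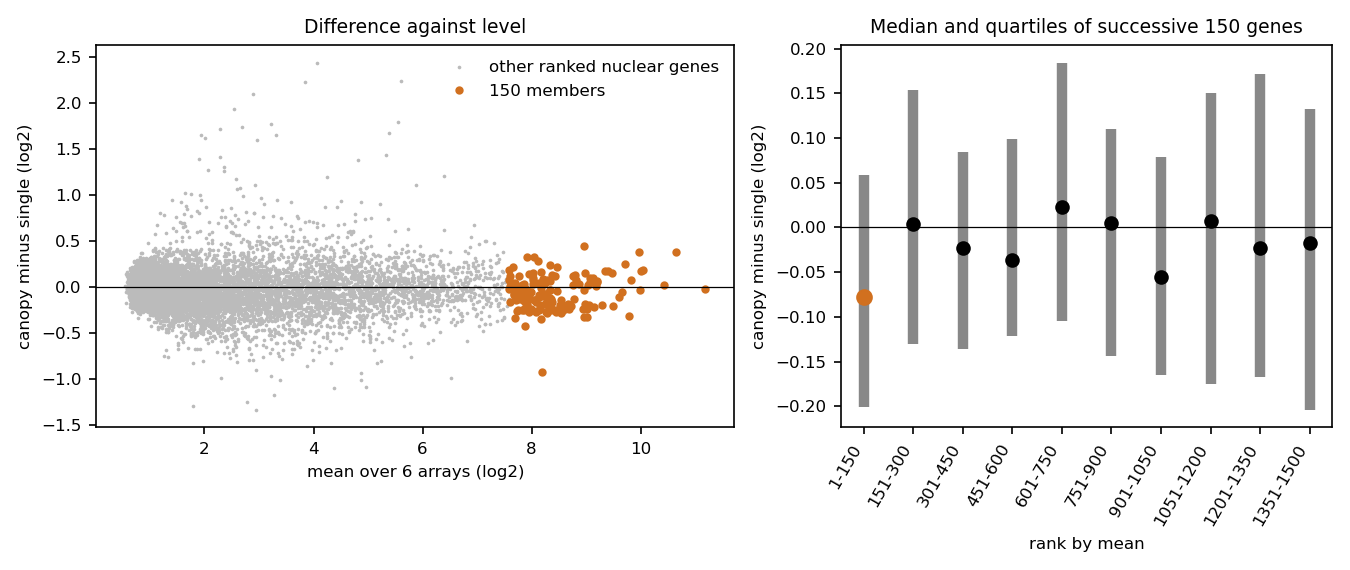
Left: canopy minus single difference (log2) against the mean over 6 arrays (log2) for the 13207 ranked nuclear genes, grey, with the 150 members in orange. Right: median (point) and quartiles (bar) of the difference for successive groups of 150 genes by rank, the members being the first, at -0.077.

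The shift was unequal between arrays. In canopy replicate 3 the members lay below a given single-plant array in 93 to 104 of 150 cases (62.0% to 69.3%, against 50.3% to 50.8% of all probe sets), and in canopy replicate 2 in 87 to 98 (58.0% to 65.3%, against 49.3% to 50.5%). In canopy replicate 1 they did so in 81 to 88 cases (54.0% to 58.7%), close to the 52.3% to 53.0% of all probe sets. As the median deviation of the members from their own means, the single-plant arrays stood at 0.034, 0.036 and 0.069 and the canopy arrays at 0.020, -0.060 and -0.061. Canopy replicate 1 thus lay nearer to the single plants than to the other canopy arrays, and it held the highest of the 3 canopy values for 79 members. Without it, 67 members were lower without overlap and 22 higher, against 15.5% and 14.2% of all probe sets, and the median difference was -0.085.

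The shift lay among members with a locus number only. These 123 had a median difference of -0.12, and 86 of them lay below 0. Among the 27 with a name the median was 0.048 and 10 lay below 0. Of the 44 members lower without overlap, 43 have a locus number only, and the one with a name is LCR68. The named members' median deviation was 0.069 in canopy replicate 2, the array in which the others stood lowest, at -0.095. Having a name in the table is not a function, and the difference between these 2 sets of members was not tested. The table gives no function for the 123, so a function shared by the lower members was not looked for.

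**Figure D3:**
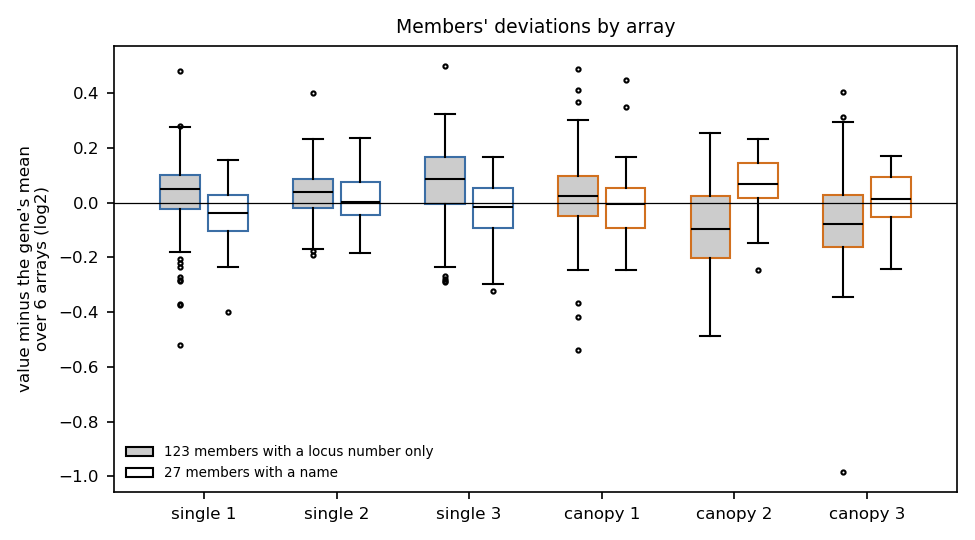
Deviation of each member from its own mean over 6 arrays (log2, vertical axis) by array, as boxes (quartiles, with the median as a line and whiskers to 1.5 times the box), grey for the 123 members with a locus number only and white for the 27 with a name. Box edges are blue for single plants and orange for the canopy. The grey boxes sit lowest in canopy replicates 2 and 3, with medians of -0.095 and -0.079.

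Among members whose groups did not overlap, AT4G29020 had the largest difference. It stood at 8.66, 8.58 and 8.68 in single plants and at 8.27, 7.69 and 7.20 in the canopy, a tight control group against a canopy group that spread over more than 1 unit. The mean difference was -0.92 ± 0.23 (log2, SE), or 1.89-fold lower in the canopy, with a limma adjusted p of 0.127 that was 0.0228 without canopy replicate 1. AT5G60670 stood at 8.12, 8.07 and 8.07 in single plants and 7.72, 7.54 and 7.73 in the canopy, with little spread in either group. Its difference was -0.42 ± 0.09 (log2, SE), or 1.34-fold lower. AT2G27710 stood at 8.35, 8.29 and 8.39 in single plants and 8.04, 7.92 and 8.03 in the canopy, 1.27-fold lower (limma adjusted p = 0.133). The groups of all 3 genes were separated by more than the range of the single-plant arrays.

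AT3G16080 stood at 7.87, 7.80 and 7.93 in single plants and at 7.78, 7.32 and 7.49 in the canopy, so that canopy replicate 1 lay close to the lowest single-plant array. AT2G19730 stood at 9.25, 9.06 and 9.22 in single plants and at 9.03, 8.75 and 8.78 in the canopy, where replicate 1 was again nearest to the controls. Their differences were -0.33 ± 0.12 and -0.33 ± 0.11 (log2, SE), with limma adjusted p of 0.310 and 0.256.

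Besides these, AT5G20290 among the 12 highest, and LCR68 among the secreted proteins, 17 members had lower canopy levels at an unadjusted p under 0.05. They were named after their values were seen, and their differences lay between -0.32 and -0.20. AT3G09200 differed by -0.32, AT1G15930, AT3G60770 and AT5G19510 by -0.27 each, and AT4G17390 and AT5G61170 by -0.26 each. AT1G26880 and AT1G18540 stood at -0.25 each, and AT1G67430, AT2G37660 and AT1G52300 at -0.24 each. AT1G01100, AT1G08360 and AT4G34670 were at -0.23 each, and AT2G41840, AT5G15200 and AT3G05560 at -0.20 each. None of them had a limma adjusted p under 0.20, and their SEs were 0.081 to 0.12. The further 20 members lower without overlap had differences from -0.25 to -0.054 and an unadjusted p of 0.05 or more.

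The largest difference upward among members whose groups did not overlap was that of AT2G45180. It stood at 8.44, 8.81 and 8.97 in single plants and 9.37, 9.22 and 8.97 in the canopy. The lowest canopy array and the highest single-plant array nearly met, and the difference was 0.45 ± 0.15 (log2, SE), or 1.36-fold (limma adjusted p = 0.280). ECS1 stood at 9.57, 9.78 and 9.97 in single plants and 10.32, 10.09 and 10.08 in the canopy, 1.31-fold higher with a limma adjusted p of 0.241. Its single-plant arrays were spread over 0.40 units and its canopy arrays were closer together.

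AT5G20700 was 1.26-fold higher, at 7.79, 7.83 and 7.63 in single plants against 8.18, 8.09 and 7.97 in the canopy. AT1G49750 was also 1.26-fold higher, at 7.84, 7.86 and 7.95 against 8.26, 8.06 and 8.32. AT3G47070 stood at 8.01, 8.06 and 7.83 in single plants and 8.18, 8.36 and 8.22 in the canopy, a difference of 0.28 ± 0.10 (log2, SE). Their limma adjusted p were 0.204, 0.202 and 0.283. Of the other members higher without overlap, AT3G50685 differed by 0.22, AT1G19450 by 0.19, AT4G15545 by 0.15, AT1G32470 by 0.12 and AT3G11630 by 0.10.

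The 5 named members of carbon fixation and photorespiration differed little between the groups. None was called by limma, 3 lay above 0 and the median difference was 0.052. PRK, phosphoribulokinase, which remakes the acceptor for carbon dioxide, differed by 0.061 ± 0.11 (log2, SE), and HPR, the peroxisomal hydroxypyruvate reductase of photorespiration, by 0.052 ± 0.12. NADP-MDH, the chloroplast malate dehydrogenase that exports reducing power, stood at 7.78 ± 0.06 in single plants and 7.78 ± 0.06 in the canopy (SD, n = 3). SBPASE, sedoheptulose-bisphosphatase of the Calvin cycle, stood at 8.74, 8.70 and 8.72 in single plants and 8.87, 8.93 and 8.77 in the canopy, without overlap and 0.14 ± 0.09 apart. The 95% intervals of these 5 genes with RCA included ran from -0.23 to 0.33, so a 2-fold change of any of them lay outside its interval.

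Of the 3 chlorophyll and thylakoid genes, 0 were called. CURT1A, which bends the thylakoid membrane at the edges of its stacks, stood at 9.22, 9.30 and 9.27 in single plants and 9.38, 9.52 and 9.42 in the canopy. The groups did not overlap and differed by 0.18 ± 0.09 (log2, SE; limma adjusted p = 0.464). Geranylgeranyl reductase (AT1G74470), which supplies the phytyl tail of chlorophyll, differed by 0.18 ± 0.10 with overlapping groups. CHLM, the magnesium-protoporphyrin IX methyltransferase of chlorophyll synthesis, differed by -0.054 ± 0.10.

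The 5 genes of glycolysis and respiration included GAPC2, which showed the smallest p of the group (limma adjusted p = 0.478). TPI, the cytosolic triosephosphate isomerase, differed by 0.013 ± 0.088 and cICDH, the cytosolic isocitrate dehydrogenase that yields NADPH, by 0.034 ± 0.11 (log2, SE). CYTC-1, the mobile electron carrier cytochrome c, stood at 8.32 to 8.39 in single plants and 8.27 to 8.35 in the canopy. MPPBETA, a subunit of the peptidase that trims proteins imported into mitochondria, differed by -0.057 ± 0.094. The groups of all but GAPC2 overlapped, and 0 of the 5 were called.

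Of the 3 genes for a peroxidase, a glutathione transferase and a stress protein, all lay above 0 and 0 were called. GSTU20, a tau-class glutathione transferase, was among the most variable members. It stood at 8.42, 8.50 and 8.14 in single plants and 8.92, 8.51 and 8.31 in the canopy, with overlap and a difference of 0.22 ± 0.16 (log2, SE). HIRD11, a small dehydrin that binds metal ions, stood at 8.22, 8.22 and 8.06 in single plants and 8.23, 8.25 and 8.30 in the canopy, without overlap but only 0.093 ± 0.088 apart.

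The 5 secreted or wall-associated proteins held the largest differences of named members, in both directions. Besides ECS1, LCR68, a low-molecular-weight cysteine-rich peptide of the plant defensin kind, stood at 8.44, 8.52 and 8.31 in single plants and 8.16, 8.04 and 8.23 in the canopy. The groups did not overlap and differed by -0.28 ± 0.10 (log2, SE; limma adjusted p = 0.280), in the direction opposite to ECS1. XTH32, a xyloglucan endotransglucosylase/hydrolase that cuts and rejoins a wall polymer, differed by 0.17 ± 0.09, and GH9C2, a glycosyl hydrolase of class 9, by -0.049 ± 0.10. RALFL34, a peptide hormone of the rapid alkalinization factor family, differed by -0.081 ± 0.092. These 3 had overlapping groups.

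Of the other 6 named members, 0 were called. UBC28, a ubiquitin-conjugating enzyme, stood at 8.41, 8.18 and 8.03 in single plants and 8.44, 8.50 and 8.42 in the canopy, without overlap, and differed by 0.24 ± 0.11 (log2, SE; limma adjusted p = 0.419). SAMDC, S-adenosylmethionine decarboxylase of polyamine synthesis, had the highest level of the 6 and differed by 0.052 ± 0.088. TUA6, an α-tubulin of the microtubules, stood at 8.31 to 8.35 in single plants and at 8.03 to 8.34 in the canopy, where replicate 3 was the low one. PGY1, a protein of the large ribosomal subunit with a part in leaf patterning, differed by -0.10 ± 0.09. APA1, an aspartic proteinase, differed by 0.048 ± 0.093 and NPF6.2, of the NRT1/PTR transporter family, by 0.030 ± 0.11.

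**Figure D4:**
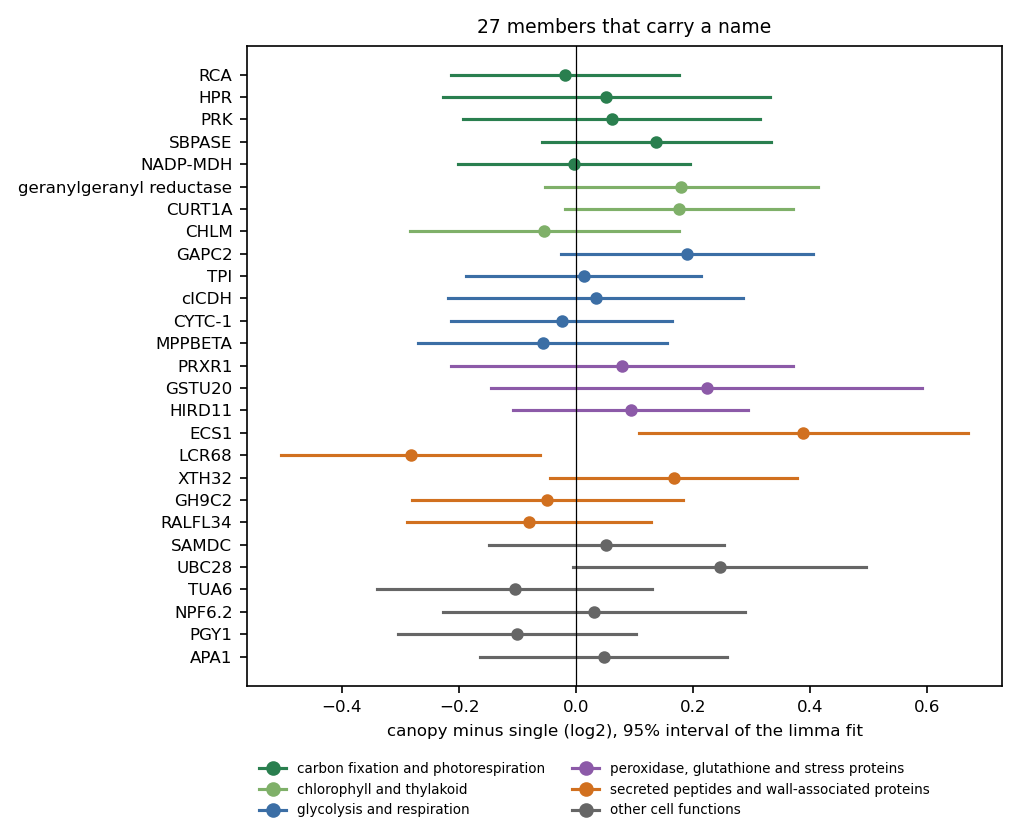
Canopy minus single difference (log2, horizontal axis) with its 95% interval from the limma fit for the 27 members that carry a name, coloured by role and ordered by mean level within a role. The intervals of ECS1 and LCR68 alone leave out 0, on opposite sides, and neither passed the adjusted threshold.

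Families of the named members, and others often abundant in plant tissue, such as histones and metallothioneins, were followed through the genes that the tables name. Of 22 families searched, 19 had at least 1 named gene and 14 held a member, and together they held 109 named genes that are not among the 150. Of the 109, 0 were called higher and 1 lower by limma over all probe sets, against 0.677% called in either direction. At an unadjusted p under 0.05 there were 20 of the 109, against 12.2% of all probe sets. The one called was GH9B13, a class 9 glycosyl hydrolase at a mean level of 1.98, which fell by 0.80 on the log2 scale (limma adjusted p = 0.0207). Among the other families with at least 9 named genes, members included, 0 of 13 cysteine-rich and defensin peptides, 0 of 13 ubiquitin-conjugating enzymes, 0 of 11 tau glutathione transferases and 0 of 10 xyloglucan endotransglucosylase/hydrolases were called. The same held for 10 rapid alkalinization factor-like peptides, 10 isocitrate dehydrogenase, malate dehydrogenase and cytochrome c genes, 9 peroxidases and 9 tubulins and actins. Some uncalled genes, named after their values were seen, still differed widely. PDF1.2 and PDF1.2b were higher by 2.44 ± 1.0 and 1.79 ± 0.57 (log2, SE; limma adjusted p = 0.373 and 0.234). Of the 13 peptides, 6 lay above 0 and 7 below. XTH19 and TUA1 differed by 0.885 and 0.676, and RALFL32 and UBC20 by -0.636 and -0.528 (limma adjusted p = 0.103, 0.0734, 0.111 and 0.103). Ribosomal proteins had 2 named genes, and aquaporins, lipid transfer proteins and translation factors 0, so these families were hardly followed. Members with a locus number only were placed in no family, so the counts do not show how many of the 150 belong to each.

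The members most variable between replicates after AT4G29020 were AT1G13930 and AT1G29670. AT1G13930 stood at 7.68, 7.87 and 7.98 in single plants and 7.24, 7.73 and 8.18 in the canopy, so that the canopy group reached both below and above the controls. AT1G29670 stood at 7.95, 7.74 and 8.06 in single plants and 7.47, 7.94 and 8.19 in the canopy. In both genes canopy replicate 1 was the lowest of the 6 arrays and canopy replicate 3 the highest. Their residual SDs were 0.349 and 0.280.

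Members were spread over all 5 nuclear chromosomes, with 42, 24, 41, 18 and 25 on chromosomes 1 to 5. Chromosome 3 held 27.3% of the members and 20.6% of the ranked genes, and chromosome 5 held 16.7% and 22.6%. In 3 places a pair of members were direct neighbours in the RefSeq gene order. AT2G27710 and AT2G27720 differed by -0.34 ± 0.09 and -0.14 ± 0.13 (log2, SE), and AT1G29660 and AT1G29670 by 0.13 ± 0.16 and -0.051 ± 0.17. For AT3G02080 and MPPBETA (AT3G02090) the differences were -0.16 ± 0.10 and -0.057 ± 0.094.

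The medians of the 6 arrays lay between 1.29 and 1.32, and the upper quartile of the arrays was 0.041 lower in the canopy. Across probe sets, which are not replicates, the correlation of 2 arrays of a group was 0.990 to 0.994, and of arrays from different groups 0.987 to 0.991. Above the members' limit lay 13 control probe sets for plant transcripts, with differences of -0.15 to 0.41, and 7 for spiked RNA, with differences of -0.11 to 0.33. The groups did not overlap for some of these, such as a ubiquitin control at 0.41 ± 0.10 and an actin control at -0.15 ± 0.10 (log2, SE). Among the spikes this held for CreX-3 at 0.33 ± 0.13 and BioDn-3 at 0.20 ± 0.10. The cre probe sets r2-P1-cre-3 and r2-P1-cre-5 differed by -0.027 and -0.11 with overlap, and the GAPDH controls overlapped too. RNA integrity was read from the actin control probe sets, whose 3′ end stood above the 5′ end by 1.64 ± 0.09 in single plants and 1.39 ± 0.11 in the canopy (log2, SD, n = 3), without overlap. The same measure was 0.081 ± 0.14 and 0.27 ± 0.08 for the ubiquitin control and -0.28 ± 0.15 and -0.21 ± 0.14 for the GAPDH control, with overlapping groups and the higher mean in the canopy. The part of any of these controls' differences in the members' shift was not tested. Of 43 listed cell type markers 3 were paired with a probe set. These were RCA for green tissue, the guard-cell gene FAMA at 1.39 and PYK10, listed for root, at 3.28. PYK10 was the only paired gene listed for another organ, and it cannot show by itself whether other organs were present. PYK10 stood at 3.87 in single plants and 2.70 in the canopy (limma adjusted p = 0.087), and its part in the members' shift was not tested.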

How the data were processed

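The deposited log2 values were, per the submitters' processing notes, made by the authors with RMA (R 2.15.0). The log2 scale was inferred, since spiked hybridisation controls rose by 1.08 to 1.21 units per doubling of their supplied concentration. Canopy replicate 1 had the 1.21, and the other arrays lay at 1.08 to 1.11. Whether this bears on that array's nearness to the single plants was not tested. The zero point, the chip definition and any offset are not stated in the processing notes, and no detection calls were used. The number of arrays limits the precision. Leaving out Affymetrix controls, 22746 probe sets remained. The annotation pairs 13513 of them with 1 gene, 503 with more and 8730 with no gene, and 13436 matched the RefSeq table (TAIR10.1) by gene number. Of these, 13367 were nuclear. That table was used for names and gene order only.

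All 22746 probe sets were fitted with limma 3.58.1 in R 4.3.3 (lmFit and eBayes, two-sided, group only, no filter). The fit was tested on simulated data. Labels name biological replicates, each a pool of plants. They do not say that a replicate number marks a shared batch, so replicate numbers were not taken as pairs. Deviations of same-numbered arrays correlated at 0.0024, 0.099 and -0.064, which does not exclude pairing. Named genes were the 12 highest, the 5 largest differences each way among members without overlap, the top and smallest-p member of each role with 5 or 6 members, the genes at the limit and all members with a RefSeq name. All members without overlap were added after the values were seen. Roles were assigned from names alone, on a listing without differences. A marker symbol shared with formate dehydrogenase was left out. The members and lists were chosen with earlier results of these data known.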

Additional observations from a re-analysis of the deposited data

How the results depend on the processing

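Counts of called members were 0 higher and 0 lower under the replicate block, equal medians, repeated quantile normalization, array weights, the filter on low levels and every other choice of members (100 or 200 genes, ranking by one group, photosynthesis symbols kept, mean of a gene's probe sets). An intensity trend with robust moderation called 1 lower, AT4G29020 (adjusted p = 0.0349, and 0.0228 to 0.298 over all its alternatives), and an adjusted p under 0.1 gave 1 lower, AT5G60670. An unadjusted p under 0.05 gave 7 higher and 24 lower. Leaving out 1 array gave 0 members called higher and 0 to 1 lower, the 1 being AT4G29020 without canopy replicate 1. All probe sets gave 154 calls, 63 with the replicate block, and 17 to 159 without 1 array. Without 1 array, members without overlap numbered 46 to 67 lower and 18 to 23 higher, against 14.0% to 15.5% and at most 14.2% of all probe sets (13.1% where 23 were higher), an alternative added after the data were seen. The replicate block called no member, as did the fit without it. The members' median was -0.103 to -0.0556 over the other alternatives and -0.0879 to -0.064 without 1 array. For 90 named genes, 7 of 540 values turned sign: with equal medians RCA (0.0029), AT1G73230 (0.0054) and NADP-MDH (0.019), and with repeated quantile normalization AT1G09310 (-0.057), TPI (-0.044), CYTC-1 (0.039) and NADP-MDH (0.020). Leaving out 1 array turned 15 genes, none called: RCA (-0.056 to 0.0095), AT1G09310 (-0.019 to 0.084), PRXR1 (-0.020 to 0.18), AT3G52730 (-0.043 to 0.20), AT1G73230 (-0.081 to 0.021), AT5G61660 (-0.27 to 0.076), AT2G37220 (-0.12 to 0.051), TPI (-0.030 to 0.044), HPR (-0.021 to 0.19), PRK (-0.019 to 0.14), cICDH (-0.056 to 0.11), CYTC-1 (-0.040 to 0.0020), NPF6.2 (-0.068 to 0.11), GH9C2 (-0.12 to 0.035) and NADP-MDH (-0.025 to 0.035). The 59 members without overlap are all among the 90 named genes and cannot turn when 1 array is left out. Only the other named genes could, and the 15 come from these. Without 1 array the medians of carbon fixation (-0.019 to 0.13), glycolysis (-0.040 to 0.044), secreted (-0.083 to 0.035) and other (-0.024 to 0.051) named members also changed sign. The cause of these changes was not tested. With 3 arrays per group, the median half-width of a member's 95% interval was 0.228, which limits what differences can be told from 0.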
